A study of Drosophila melanogaster with 20 samples.

Results

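Whole Drosophila melanogaster embryos that lacked mef2 activity were set against embryos of a control stock at stage 13, when muscle differentiation begins. The 8 arrays of this comparison, 4 for each genotype, came from a series of 20 arrays and 5 genotypes. The null embryos carried the allele 22.21 of mef2 and were picked from their siblings by the absence of a second-chromosome balancer marked with GFP. The control embryos came from the stock dp cn a px sp, which carries visible recessive markers on the second chromosome. The 3 hypomorphic alleles of the series, 113, 424 and 65, were made by mutagenesis of that same stock, as the series' description states, whereas the labels say nothing about the stock in which 22.21 arose. By the same description Mef2 activity increases from 22.21 through 113, 424 and 65 to the control. Mef2 lies on the second chromosome, so the mutation and the rest of the chromosome it sits on cannot be told apart in this comparison. Differences between the stocks on the other chromosomes were not tested either. Every array was hybridised with RNA from a pool of 150 embryos, collected over 30 minutes kept at 25 °C for 6.5 h before sorting, and left to reach mid stage 13. The labels do not say that the 4 pools of a genotype came from separate crosses, and the p-values cover no more than array-to-array spread, part of which may be technical. Of 10844 genes with a probe set of a single gene symbol, each represented by its brightest probe set, 8357 passed a filter on low signal and were tested.

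Mef2 is a MADS-box transcription factor that binds the control regions of many muscle genes and is needed for myoblasts to differentiate in the fly. In embryos without it, myoblasts are specified but do not build muscle fibres. A muscle fibre is made of sarcomeres, in which thick filaments of myosin slide along thin filaments of actin, tropomyosin and troponin, anchored at the Z-disc. At this stage fibres form by fusion of founder cells with fusion-competent myoblasts, and they attach to tendon cells of the epidermis through integrins. The visceral muscle of the gut also needs Mef2 to differentiate. RNA of a whole embryo holds all tissues, so fewer cells of a type and less RNA per cell cannot be told apart in any value below. Mef2 itself had no named probe set, and neither had Mhc, the muscle myosin heavy chain, Act57B, a muscle actin, Tm1, the other muscle tropomyosin, or wupA, troponin I. The targeted gene was therefore not analysed here and gives no check of the genotype labels.

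Differences were tested with limma on log2(signal + 16), and a gene with a Benjamini-Hochberg adjusted p under 0.05 over all genes tested was called changed. Of the 8357 genes, 1656 (19.8%) were called, 742 higher (8.88%) and 914 lower (10.9%) in the null. Fold changes are given on this scale, which understates the change of low genes. Of the calls, 62 (0.742%) were higher and 145 (1.74%) were lower by at least 2-fold on this scale. The 4 null arrays lay above all 4 control arrays for 809 genes (9.68%) and below them for 943 (11.3%). The median log2 change over all genes was -0.01, and after median centring of the arrays, which moved it to 0.04, the calls split into 984 higher and 751 lower. Arrays correlated across genes at a Pearson r of 0.964 to 0.976 within the null, 0.967 to 0.976 within the control and 0.934 to 0.948 between them. Null and control arrays of the same number shared a hybridisation day. They did not share the fluidics module throughout, because the 4 control arrays ran on module 4 and the null arrays on modules 4, 3, 4 and 3. With the module as a block 1107 genes were called, of which 1036 were among the 1656. No hypomorph array ran on module 4, so with this block only null replicates 1 and 3 are set against the control. A call lost with the block thus rests on fewer null arrays, and the part of the module itself was not tested. Median signals were lower in the null arrays, at 33.7 to 34.8, than in the control arrays, at 35.5 to 37.3. The ratio of the 3′ to the 5′ actin control probe sets, a measure of RNA integrity, ranged over 1.75 to 2.30 for null arrays and 2.27 to 2.70 for control arrays, and that of the Gapdh control over 0.349 to 6.25 for null arrays and 1.37 to 3.18 for control arrays. The part of signal level and RNA integrity in the calls was not tested.

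**Figure D1:**
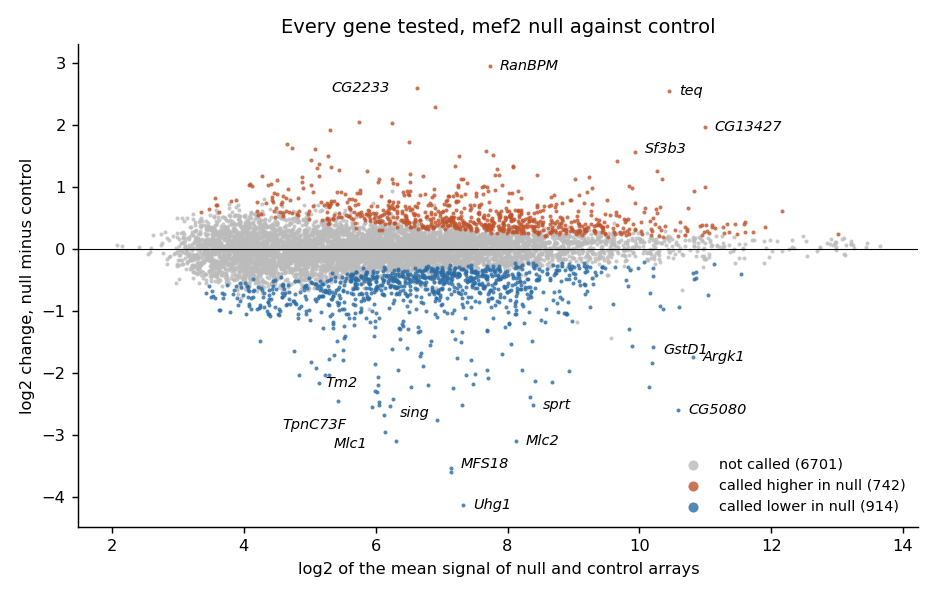
The log2 change of every gene tested, null minus control (vertical axis), against the log2 of its mean signal over the 8 arrays (horizontal axis); 742 genes called higher and 914 called lower are coloured and 6701 are grey. Mlc2, Mlc1 and TpnC73F lie among the largest falls together with Uhg1 and MFS18, and RanBPM is the largest rise.

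Genes of the thick filament were lower in the null. Mlc2, which encodes the regulatory light chain of muscle myosin, had signals of 35.3, 49.2, 50.7 and 49.9 in the 4 null arrays, against 517, 522, 570.0 and 449 in the 4 control arrays. The lowest control array was thus far above the highest null array, and null replicate 1 lay apart below the other null arrays. The means were 46.3 ± 7.34 in the null and 514 ± 49.9 in the control (SD, n = 4 each). This was 8.53-fold lower, or -3.09 ± 0.13 (SE) on the log2 scale (limma with Benjamini-Hochberg adjustment, adjusted p = 6.81e-15). In the hypomorphs, which share these control arrays and whose values are set beside the null without a test, Mlc2 averaged 57.6 in 113, 185 in 424 and 339.7 in 65. Mlc1, the alkali light chain, had 3.62, 3.23, 4.46 and 4.20 in the null and 159, 169.8, 179 and 114 in the control. No null array reached 9.29, the filter level, and its log2 change of -3.09 ± 0.19 therefore varies with the pseudocount (limma adjusted p = 1.01e-11). The same held for bt, which encodes the giant connecting protein projectin, with 1.29, 2.32, 0.474 and 5.49 in the null and 29.7, 37.3, 34.5 and 41.1 in the control (log2 -1.49 ± 0.19, limma adjusted p = 1.56e-06). The other probe set of bt changed by -0.59. The myosin chaperone gene unc-45 was detected in both genotypes and fell less, with 271, 266, 236 and 179 in the null and 505, 358, 407 and 388 in the control, 1.70-fold lower (log2 -0.77 ± 0.12, limma adjusted p = 5.65e-05). Unlike Mlc2, unc-45 had hypomorph means, 235 in 113, 241 in 424 and 249.6 in 65, close to its null mean of 238. Obsc, the obscurin gene, and Strn-Mlck, a myosin light chain kinase, were at -0.13 and -0.23 and were not called. Of 6 members tested 4 were called lower, with a median log2 change of -1.13.

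Thin filament genes were lower too, by very different amounts. The tropomyosin gene Tm2 had 13.7, 4.15, 12.0 and 14.7 in the null arrays, against 105, 138, 113 and 106 in the control arrays. Null replicate 2 was the lowest and no array overlapped the other genotype. Tm2 was 4.88-fold lower in the null (log2 -2.29 ± 0.14, limma adjusted p = 4.59e-12), and its hypomorph means of 31.8 in 113, 65.0 in 424 and 97.6 in 65 filled the gap between 11.2 in the null and 115 in the control. TpnC73F, a calcium-binding troponin C, had 0.643, 4.82, 8.32 and 0.824 in the null and 182, 113, 154 and 97.9 in the control, a log2 change of -2.94 ± 0.18 (limma adjusted p = 8.75e-12). The troponin T gene up had 3.20, 3.10, 4.37 and 17.1 in the null and 139, 92.2, 139 and 94.1 in the control, a log2 change of -2.54 ± 0.21 (limma adjusted p = 1.28e-09), and its other probe set changed by -1.37. Null means of both genes lay under the filter level, so these sizes depend on the pseudocount. Null replicate 4 stood above the other null arrays for up. The muscle actin genes stayed at high signal, Act79B with 457, 436, 457 and 419 in the null and 506, 546, 558 and 615 in the control, and Act87E with 2054, 2116, 1924 and 2093 in the null and 2235, 2401, 2545 and 2509 in the control. Their falls of 1.25-fold (log2 -0.32 ± 0.09, limma adjusted p = 0.0103) and 1.18-fold (log2 -0.24 ± 0.07, limma adjusted p = 0.0127) are uncertain, since fly actins are near-identical copies whose transcripts can bind each other's probes. Act79B was not called once the module was a block (log2 -0.27, limma adjusted p = 0.125) and Act87E was not called after median centring (log2 -0.19, limma adjusted p = 0.0684). The one member that rose was tmod, which encodes tropomodulin, the cap of the pointed end of actin filaments, at 917, 954, 831 and 749 in the null and 696, 675, 705 and 745 in the control (log2 0.28 ± 0.08, limma adjusted p = 0.0102). Its other probe sets changed by -0.33 and -0.56, and with the mean of its probe sets tmod was at -0.20 and not called (limma adjusted p = 0.179). Of 6 members tested 5 were called lower and 1 higher, with a median of -1.3.

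At the Z-disc and in the scaffolds around it, the largest fall was that of Msp300, a giant nesprin that ties nuclei to the muscle cytoskeleton. Msp300 had 18.4, 18.6, 2.33 and 16.8 in the null arrays and 134, 145, 161 and 119 in the control arrays, with null replicate 3 lowest. It was 5.32-fold lower (log2 -2.41 ± 0.20, limma adjusted p = 2.34e-09) on its brightest probe set, while its other probe sets changed by -0.13 and -0.03. The probe sets of this very long gene thus disagree. The titin-related gene sls, whose product spans the Z-disc and the elastic region of the sarcomere, had 12.1, 7.87, 11.6 and 4.29 in the null and 66.2, 78.3, 56.2 and 77.0 in the control (log2 -1.78 ± 0.17, limma adjusted p = 2.21e-08). Its mean in the null, 8.96, was under the filter level, and its other probe sets changed by -1.02, 0.06 and -0.19. CAP, an adaptor of integrin adhesion sites, fell 1.60-fold, with 228, 240.3, 232 and 296 in the null and 393, 390.1, 405 and 440.1 in the control (log2 -0.68 ± 0.09, limma adjusted p = 5.27e-06). With the mean of its 4 probe sets it was at -0.32 and not called (limma adjusted p = 0.145). Actn, the alpha-actinin that cross-links actin at the Z-disc, fell 1.53-fold, with 269.9, 238, 235 and 218 in the null and 421, 364, 376 and 343 in the control (log2 -0.61 ± 0.11, limma adjusted p = 0.000261). The LIM protein gene Mlp84B at -0.45, the PDZ and LIM protein gene Zasp52 at -0.21 and the filamin gene cher at -0.01 were not called. Of 7 members tested 4 were called lower, with a median of -0.61.

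Over the 3 sarcomere lists together, 13 of 19 members tested were called lower (68.4%, against 10.9% of all genes) and 1 higher, with a median of -0.68 against -0.01 over all genes. Of the 36 genes listed, 10 more had a probe set under the filter, among them Prm, the paramyosin gene, Act88F and TpnC4, and 7 had no named probe set. All 13 that fell had null arrays entirely below the control arrays, as had 943 of all genes (11.3%). A call as lower already favours such a split. In 5 of the 13 the null mean lay under the filter level. The members' medians within each of the 4 hybridisation days were -1.13 to -1.23 for the thick filament, -1.09 to -1.41 for the thin filament and -0.55 to -0.75 for the Z-disc. Of the 14 called members 2 lie on the second chromosome. GEFmeso, Mp20 and Smyd4-3 are given here after their values were seen. Mp20, a calponin-related muscle protein, had 33.4, 50.6, 8.89 and 62.8 in the null and 173, 174, 199 and 138 in the control, 3.68-fold lower (log2 -1.88 ± 0.26, limma adjusted p = 6.77e-06), with means of 53.6 in 113, 80.7 in 424 and 104 in 65. Smyd4-3, of a family of SET and MYND domain proteins, had 9.98, 10.8, 7.0 and 31.4 in the null and 75.2, 80.2, 69.3 and 78.1 in the control (log2 -1.63 ± 0.17, limma adjusted p = 1.15e-07). GEFmeso, a guanine nucleotide exchange factor, had 31.7, 26.5, 52.7 and 45.7 in the null and 199, 148, 138 and 178 in the control (log2 -1.73 ± 0.13, limma adjusted p = 3.65e-10), while its means in the hypomorphs, 163 in 113, 167 in 424 and 150.3 in 65, were near the control.

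**Figure D2:**
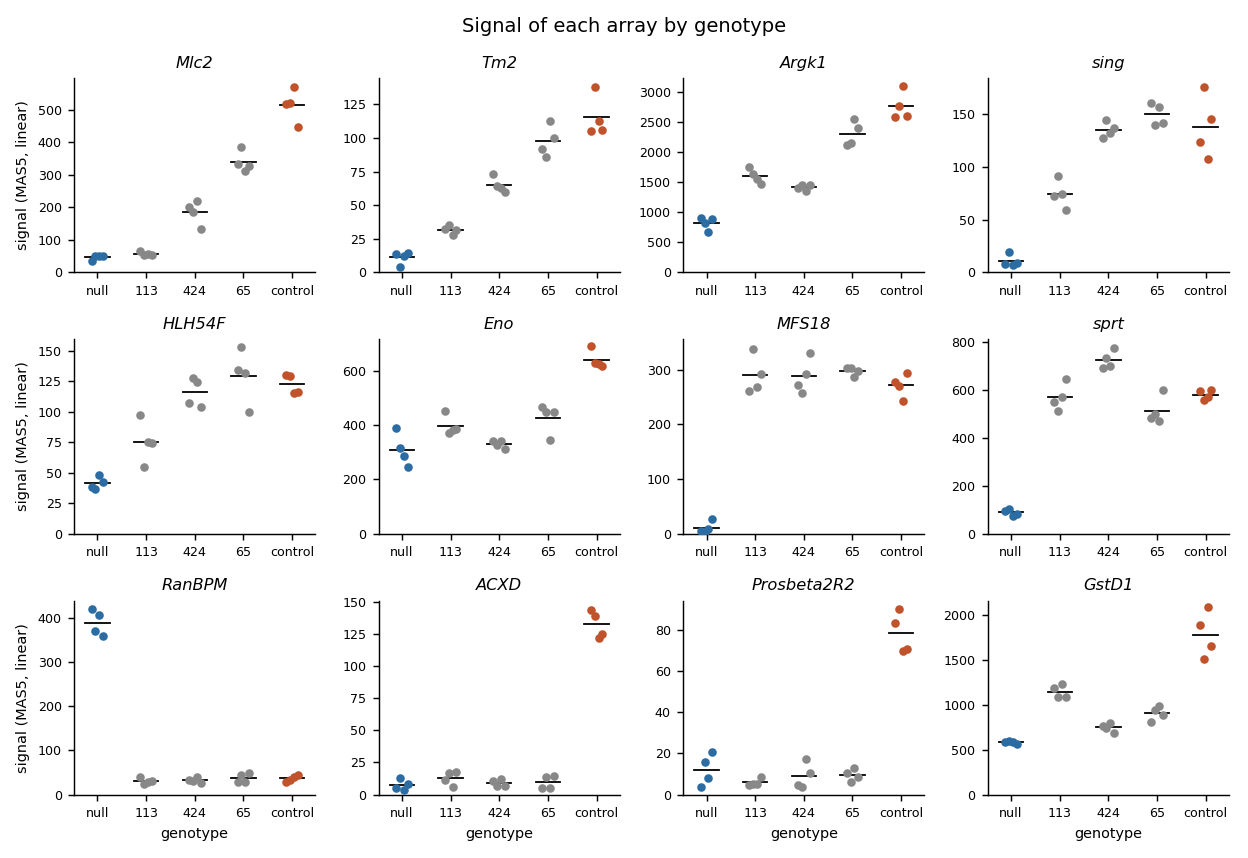
Linear signal of each of the 4 arrays per genotype (points) and their mean (bar) for 12 genes, from the null at the left through the hypomorphs 113, 424 and 65 to the control at the right. Mlc2 and Tm2 step up through the alleles, MFS18, sprt and RanBPM separate only the null arrays from the other 16, and ACXD and Prosbeta2R2 separate only the control arrays.

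Genes of muscle excitation, calcium handling and energy supply fell in part. Argk1, the arginine kinase that buffers ATP in muscle, had 904, 824, 666 and 884 in the null arrays, against 2582, 2772, 3107 and 2607 in the control arrays. Null replicate 3 was lowest and control replicate 3 highest, with no overlap. The means were 819.6 ± 108 in the null and 2767 ± 242 in the control (SD, n = 4 each), 3.34-fold lower (log2 -1.74 ± 0.09, limma adjusted p = 2.74e-13), and those of the hypomorphs were 1608 in 113, 1421 in 424 and 2306 in 65. The other probe set of Argk1 changed by only -0.16. Scgalpha, a sarcoglycan of the muscle membrane, had 12.5, 14, 9.76 and 15.3 in the null and 49.9, 42.7, 46.5 and 35.2 in the control (log2 -1.04 ± 0.15, limma adjusted p = 1.77e-05). Ca-alpha1D, the L-type calcium channel that opens on excitation, had 12.5, 17.3, 16.6 and 7.59 in the null and 31.6, 45, 37.6 and 39.7 in the control (log2 -0.89 ± 0.17, limma adjusted p = 0.000323). Both were low genes, whose changes this scale understates. GluRIIB, which encodes a subunit of the muscle's glutamate receptors, had 16, 1.63, 1.41 and 13.9 in the null, a mean under the filter level, and 43.9, 26.8, 24.0 and 40.8 in the control (log2 -1.08 ± 0.25, limma adjusted p = 0.00251). SERCA, the pump that returns calcium to its store, was expressed throughout and fell 1.41-fold, with 777, 769.8, 721 and 662 in the null and 1026, 1098, 1097 and 929.9 in the control (log2 -0.49 ± 0.10, limma adjusted p = 0.000624). Amph, the amphiphysin of the tubules that carry excitation into the fibre, was at -0.51 (limma adjusted p = 0.0089), but not once the module was a block (limma adjusted p = 0.107). RyR, the calcium release channel, was at -0.32 with overlapping arrays (limma adjusted p = 0.048), and its call was lost without null replicates 1, 2 or 4 or control replicates 1 or 4 (log2 -0.34 to -0.21, limma adjusted p 0.058 to 0.205). Of 20 members tested 7 were called lower (35.0%, against 10.9% of all genes), and the median was -0.26. Every called member but Argk1 lies on the second chromosome, where mef2 and the rest of the chromosome cannot be told apart. Not called were, among others, Dys, dystrophin, at -0.23, Scgbeta at -0.60 and the junctophilin gene jp at 0.09.

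Most enzymes measured for glycolysis and glycogen use were lower. Eno, enolase, had 387, 314, 285 and 246 in the null arrays and 692, 629, 624 and 616 in the control arrays. Control replicate 1 stood above its group and the genotypes did not overlap. Eno was 2.05-fold lower (log2 -1.04 ± 0.11, limma adjusted p = 9.95e-08), and its hypomorph means of 396 in 113, 329 in 424 and 427 in 65 lay between 308 in the null and 640.3 in the control. Glyp, the glycogen phosphorylase, had 36.2, 44.6, 31.8 and 33.7 in the null and 89.9, 74.6, 88.7 and 50.8 in the control, 1.73-fold lower (log2 -0.79 ± 0.14, limma adjusted p = 0.000193). Glys, the glycogen synthase, fell as well, with 178, 178, 182 and 229.8 in the null and 269.5, 273, 272 and 278 in the control (log2 -0.48 ± 0.09, limma adjusted p = 0.000525), so the enzymes that break down and build glycogen fell together. Phosphofructokinase, Pfk, was at -0.49 (limma adjusted p = 0.00399) and Pgi, the phosphoglucose isomerase, at -0.45 (limma adjusted p = 0.00367). Gapdh1 was at -0.40 (limma adjusted p = 0.0224) and was not called without null replicate 4 or control replicate 1 (log2 -0.33 to -0.30, limma adjusted p 0.0887 to 0.0984). The exception was Gpdh1, which diverts a glycolytic intermediate to glycerol phosphate and rose, with 104, 95.5, 112 and 106 in the null and 54.6, 66.1, 64.8 and 73.4 in the control (log2 0.58 ± 0.17, limma adjusted p = 0.0172). It was not called without control replicate 1 (log2 0.52, limma adjusted p = 0.0564). Ald1, Hex-A, Pglym78 and Pgk were at -0.19, -0.28, -0.29 and 0.26 and were not called. Of 11 members tested 6 were lower (54.5%, against 10.9% of all genes) and 1 higher, with a median of -0.40 and medians of -0.53 to -0.26 within the 4 days. Every called member but Glys lies on the second chromosome, so the part of that chromosome and of mef2 cannot be told apart.

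Myoblast fusion genes did not move as a group, apart from 1 very large fall. The gene sing, whose membrane protein myoblasts need to fuse, had 7.91, 19.5, 6.62 and 9.01 in the null arrays and 123, 175, 107 and 145 in the control arrays. Null replicate 2 was the highest null array and still far below every control array. It was 5.76-fold lower (log2 -2.53 ± 0.15, limma adjusted p = 2.43e-12), with means of 74.2 in 113, 135 in 424 and 149 in 65 among the hypomorphs. The scaffold gene rols, which acts in founder cells, fell 1.43-fold, with 107, 97.9, 104 and 107 in the null and 158, 152, 144 and 167 in the control (log2 -0.51 ± 0.09, limma adjusted p = 0.000184), but with the mean of its probe sets was at -0.25 and not called (limma adjusted p = 0.32). Vrp1, the actin regulator verprolin, rose 1.64-fold, with 269, 282, 201 and 209.7 in the null and 128, 186, 129.5 and 119 in the control (log2 0.72 ± 0.13, limma adjusted p = 0.000335). The zinc finger gene lmd, which specifies fusion-competent myoblasts and acts on mef2 itself, rose 1.34-fold, with 242, 205, 199 and 185 in the null and 179.6, 128, 126 and 174 in the control (log2 0.42 ± 0.11, limma adjusted p = 0.00881). The receptors by which founder cells and fusion-competent cells recognise each other were not called, with kirre at 0.24, rst at -0.16, sns at 0.17 and hbs at 0.38, nor was blow, an adaptor of the fusion site, at -0.17. Of 15 members tested 2 were lower and 2 higher (13.3% each, against 10.9% and 8.88% of all genes), with a median of 0.10.

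On the attachment side, parts of the integrin complex went in opposite directions. Tig, tiggrin, the ligand that muscles deposit at the attachment site, had 88.8, 116, 90.7 and 93.7 in the null arrays and 274, 233, 205 and 208 in the control arrays, 2.17-fold lower (log2 -1.11 ± 0.14, limma adjusted p = 1.14e-06). Its receptor subunit on the muscle, the alpha-PS2 integrin gene if, had 45.2, 24.5, 38.9 and 22.8 in the null and 60.5, 70.9, 85.6 and 92.3 in the control, 1.93-fold lower (log2 -0.95 ± 0.16, limma adjusted p = 9.64e-05). The partner beta-PS subunit gene mys fell 1.32-fold, with 425, 441, 419.6 and 493 in the null and 602, 564, 581 and 625 in the control (log2 -0.41 ± 0.09, limma adjusted p = 0.0024). For mys the hypomorph means, 213 in 113, 213 in 424 and 268 in 65, were lower than in the null. Inside the cell, the linker genes parvin at -0.70 (limma adjusted p = 0.000155), Fit2, a kindlin, at -0.52 (limma adjusted p = 0.0067) and stck, the PINCH adaptor, at -0.48 (limma adjusted p = 0.00096) fell. Grip, a PDZ protein of muscle guidance, was also called, at -0.49 (limma adjusted p = 0.00422). Its call was lost with the module as a block (log2 -0.40, limma adjusted p = 0.0844). Ilk, the kinase-like partner of parvin and PINCH, was at -0.25 and was not called. The talin gene rhea rose 1.32-fold, with 1437, 1282, 1283 and 1494 in the null and 1018, 941, 1076 and 1105 in the control (log2 0.40 ± 0.09, limma adjusted p = 0.00123), though its other probe set changed by 0.03 and the mean of both was not called (limma adjusted p = 0.0889). Also higher were drl, a receptor of the Ryk family that guides some muscles, at 0.47 (limma adjusted p = 0.00279), and mew, the alpha-PS1 integrin of tendon cells, at 0.38 (limma adjusted p = 0.0395). The call of mew was lost without null replicates 2, 3 or 4 or control replicate 3 (log2 0.24 to 0.39, limma adjusted p 0.0649 to 0.188), and control replicate 3 lay apart below its group. The tendon factor sr was at -0.21 and the tendon ligand Tsp, thrombospondin, at 0.05, and neither was called. Of 18 members tested 7 were lower and 3 higher (38.9% and 16.7%, against 10.9% and 8.88% of all genes), with a median of -0.23. Of 11 genes of the basement membrane 1 was called higher (9.1%, against 8.88% of all genes), the collagen gene Col4a1, at 0.37 (limma adjusted p = 0.0126). The call was lost without null replicate 4 (log2 0.31, limma adjusted p = 0.0519).

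Regulators of the mesoderm moved less than the structural genes. The zinc finger gene zfh1 had 156, 204, 175 and 179 in the null arrays and 496, 469.5, 352 and 396 in the control arrays, 2.28-fold lower (log2 -1.19 ± 0.13, limma adjusted p = 1.26e-07). The hypomorph means of zfh1 were 285 in 113, 69.8 in 424 and 198 in 65, with 424 below the null. The fly MyoD homologue nau had 17.8, 23.1, 21.9 and 27.5 in the null and 54.6, 40.1, 55.0 and 48.2 in the control, 1.70-fold lower (log2 -0.76 ± 0.14, limma adjusted p = 0.00018). The bHLH gene tx was at -0.56 (limma adjusted p = 0.000213), and htl, the FGF receptor of the mesoderm, at -0.49 (limma adjusted p = 0.00617), which was not called once the module was a block (limma adjusted p = 0.0642). With bap and bin, described with the visceral muscle, 6 of 21 members tested were lower (28.6%, against 10.9% of all genes). Besides lmd, akirin, a nuclear cofactor of the mesoderm factor Twist, rose, with 2882, 3238, 2976 and 2600.0 in the null and 2212, 2461, 2357 and 1848 in the control (log2 0.40 ± 0.09, limma adjusted p = 0.00237). The early factors were not called, twi at 0.31, sna at -0.15 and pnr at -0.26, nor was Him, an inhibitor of Mef2, at 0.09. The median was -0.14.

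Of 21 genes that give single muscles their identity 2 were higher and 3 lower. These shares, 9.5% and 14.3%, were near the 8.88% and 10.9% of all genes. Dr, a homeobox gene of the lateral and dorsal muscles, had 168, 184, 209.9 and 178 in the null and 276, 282, 259 and 255 in the control (log2 -0.50 ± 0.12, limma adjusted p = 0.00292). The Iroquois gene caup rose 1.60-fold, with 124, 121, 117 and 97.2 in the null and 70.0, 59.2, 52.2 and 83.3 in the control (log2 0.68 ± 0.13, limma adjusted p = 0.000334), and all hypomorphs also had means above the control, 96.9 in 113, 111 in 424 and 118 in 65. The other calls depended on single arrays. For vg, at -0.45 (limma adjusted p = 0.0136), the call was lost without null replicate 3 (log2 -0.37, limma adjusted p = 0.0582), and for eve, at 0.63 (limma adjusted p = 0.0108), it was lost without null replicate 3 or control replicate 3 (log2 0.46 to 0.51, limma adjusted p 0.053 to 0.0596). The T-box gene org-1, at -0.46 (limma adjusted p = 0.0444), is also a visceral muscle gene and follows below. Well-known members that were not called include slou at -0.17, Kr at 0.05, ap at 0.03, kn at -0.08 and lbl at 0.15.

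Of 7 visceral muscle genes 6 were lower (85.7%, against 10.9% of all genes), and the median was -0.49. Without control replicate 3 or 4, and also after median centring or quantile normalization, the count was 4. HLH54F, which specifies the caudal visceral mesoderm, had 37.8, 36.6, 48.2 and 42.6 in the null arrays and 129.8, 129, 115 and 116 in the control arrays. It was 2.43-fold lower (log2 -1.28 ± 0.13, limma adjusted p = 1.01e-07), with hypomorph means of 75.3 in 113, 116 in 424 and 129.5 in 65. The ubiquitin ligase gene mib2, needed to keep differentiated muscle intact, had 164, 179, 133 and 128 in the null and 358, 396, 336 and 388 in the control, 2.32-fold lower (log2 -1.22 ± 0.13, limma adjusted p = 1.74e-07). In the hypomorphs mib2 averaged 223 in 113, 279 in 424 and 320.2 in 65. The homeobox gene bap, which specifies the trunk visceral mesoderm, fell 1.56-fold, with 74.7, 89.8, 95.4 and 65.0 in the null and 148, 145, 134 and 112 in the control (log2 -0.64 ± 0.15, limma adjusted p = 0.00282). The tubulin gene betaTub60D, active in differentiating mesoderm, fell 1.40-fold, with 1591, 1746, 1360.0 and 1354 in the null and 2179, 2283, 2146 and 1865 in the control (log2 -0.49 ± 0.12, limma adjusted p = 0.00471), and its other probe set changed by -0.69. The forkhead gene bin was at -0.43 with overlapping arrays (limma adjusted p = 0.0287), a call lost without null replicates 1, 2 or 3 or control replicates 3 or 4 (log2 -0.43 to -0.33, limma adjusted p 0.0523 to 0.123). For org-1 the call was lost without null replicate 4 or control replicates 2, 3 or 4 (log2 -0.49 to -0.25, limma adjusted p 0.0535 to 0.215), and null replicate 4 lay apart below its group. Hand, which is shared with the heart, was not called, at -0.39. The summed signal of the 7 members was 1742 to 2238 in the null arrays and 2731 to 3205 in the control arrays. The median log2 change over the members was -0.45, -0.46, -0.65 and -0.98 on the 4 days. Of 9 heart and pericardial genes 1 was called higher (11.1%, against 8.88% of all genes). It was the T-box gene mid, at 0.40 (limma adjusted p = 0.0136), and its call was lost without null replicate 4 (log2 0.33, limma adjusted p = 0.0599).

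Markers of the other tissues of the embryo showed how far the change went beyond muscle. By limma, 0 of 9 hemocyte genes and 0 of 7 gut endoderm genes were called, against 19.8% of all genes, at medians of 0.01 and -0.01. At an unadjusted p under 0.05, 2 hemocyte genes were lower, and 2 gut genes were lower and 1 higher. The pan-neuronal gene elav was at -0.01 (limma adjusted p = 0.991), with means of 174 in the null and 193 in the control. Of 9 neuronal genes 1 was called higher (11.1%, against 8.88% of all genes). That was Nrt, neurotactin, an adhesion protein, at 0.25 (limma adjusted p = 0.00287), whose other probe set went the other way, at -0.50. In the fat body the summed signal was 2009 to 2462 in null arrays, against 2972 to 3144 in control arrays. Of its 6 members 2 were lower (33.3%, against 10.9% of all genes). These were apolpp, the precursor of the main lipid carrier, with 1624, 1628, 1643 and 1339 in the null and 2132, 2211, 2219 and 2108 in the control (log2 -0.48 ± 0.08, limma adjusted p = 8.09e-05), and Mtp, which loads lipid onto it, with 508, 470.4, 592 and 500.0 in the null and 663, 684, 649.6 and 675 in the control (log2 -0.36 ± 0.08, limma adjusted p = 0.00279). Mtp was not called once the module was a block (limma adjusted p = 0.0567). The gene apolpp lies on chromosome 4, described at the end.

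Glia were split, with 4 of 9 lower and 2 higher (44.4% and 22.2%, against 10.9% and 8.88% of all genes). The median was -0.14, and the summed signal was 2199 to 2468 in null arrays, against 2538 to 2697 in control arrays. The homeobox gene repo, expressed in nearly all lateral glia, rose 1.89-fold, with 106, 117, 129.5 and 114 in the null and 59.8, 48.1, 50.3 and 59.6 in the control (log2 0.91 ± 0.12, limma adjusted p = 1.90e-06). The sodium pump subunit gene nrv2 rose 1.72-fold, with 147, 168, 206 and 176 in the null and 91.4, 66.3, 103 and 124 in the control (log2 0.78 ± 0.19, limma adjusted p = 0.00363), while its paralogue nrv1 fell, with 479.9, 585, 519 and 439.7 in the null and 619, 653, 683 and 657 in the control (log2 -0.37 ± 0.09, limma adjusted p = 0.00391). Gs2, glutamine synthetase, fell 1.38-fold, with 232, 204, 256 and 242 in the null and 348, 333, 299 and 329.9 in the control (log2 -0.47 ± 0.09, limma adjusted p = 0.000361). The calls of loco, at -0.28, and wrapper, at -0.38, were lost without null replicate 2 or control replicate 1 (log2 -0.26, limma adjusted p 0.0507 to 0.0544) and without null replicate 3 or control replicates 2 or 3 (log2 -0.36 to -0.29, limma adjusted p 0.0504 to 0.0929). Among 10 neuroblast genes, grh rose 2.00-fold, with 271, 279, 333 and 234 in the null and 101, 138, 117 and 177 in the control (log2 1.00 ± 0.14, limma adjusted p = 8.04e-06). It is also the main transcription factor of the epidermal barrier. The neuroblast genes dpn, at -0.38, and nab, at -0.71, were lower, and their calls were lost without null replicate 4 (log2 -0.27, limma adjusted p = 0.0665) and without null replicates 2 or 4 or control replicate 1 (log2 -0.66 to -0.49, limma adjusted p 0.0597 to 0.112). With the module as a block dpn was at -0.25 and nab at -0.30, and neither was called (limma adjusted p = 0.22 and 0.458).

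In the epidermis and its apical matrix 3 of 19 members were higher and 3 lower, at a median of -0.05. This was 15.8% each, against 8.88% and 10.9% of all genes. The zona pellucida protein gene pio had 34.0, 36.5, 54.0 and 36.9 in the null arrays and 277, 229, 239 and 247 in the control arrays, 4.72-fold lower (log2 -2.24 ± 0.11, limma adjusted p = 1.14e-13). Null replicate 3 lay above the other null arrays, and the hypomorph means of 277 in 113, 261 in 424 and 247 in 65 were near the control. The wing hair gene mwh rose 2.83-fold, with 245, 261, 198 and 237 in the null and 77.6, 75.6, 76.2 and 60.9 in the control (log2 1.5 ± 0.12, limma adjusted p = 1.26e-09), and its hypomorph means of 288 in 113, 165 in 424 and 197 in 65 were also above the control. The chitin deacetylase gene verm rose by 0.38 ± 0.08 (limma adjusted p = 0.000869). The lower members f, the forked actin bundler, and Cht2, a chitinase, were at -0.58 and -0.45, and their calls were lost without null replicate 1 or control replicate 3 (log2 -0.51 to -0.44, limma adjusted p 0.057 to 0.0703) and without null replicate 3 or control replicate 1 (log2 -0.36 to -0.35, limma adjusted p 0.0564 to 0.0582). The other probe set of f changed by 0.03, and with the mean of both f was at -0.28 and not called (limma adjusted p = 0.214). Of 16 septate junction genes, which seal epithelia, 2 were higher and 1 lower (12.5% and 6.2%, against 8.88% and 10.9% of all genes). Tsf2, a transferrin needed for junction assembly, rose 1.90-fold, with 2362, 2305, 2697 and 2229 in the null and 1197, 1233, 1218 and 1353 in the control (log2 0.93 ± 0.11, limma adjusted p = 6.52e-07). Nrx-IV, a neurexin of the same junctions, fell 1.31-fold, with 442, 416, 462 and 439.7 in the null and 568, 626, 557 and 567 in the control (log2 -0.38 ± 0.09, limma adjusted p = 0.002). The third, bou, was at 0.19, and its call was lost without any 1 of the 8 arrays (log2 0.17 to 0.20, limma adjusted p 0.0526 to 0.121). Trachea had 1 of 8 called higher (12.5%, against 8.88% of all genes), uif, at 0.42 (limma adjusted p = 0.00909). With the module as a block uif was not called (limma adjusted p = 0.199). Salivary gland had 1 of 5, the sulfotransferase gene pip, at 0.71 (limma adjusted p = 0.00534), and the germ line 1 of 7, aub, at -0.40, lost without null replicates 3 or 4 or control replicates 1 or 4 (log2 -0.39 to -0.33, limma adjusted p 0.0565 to 0.0946).

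**Figure D3:**
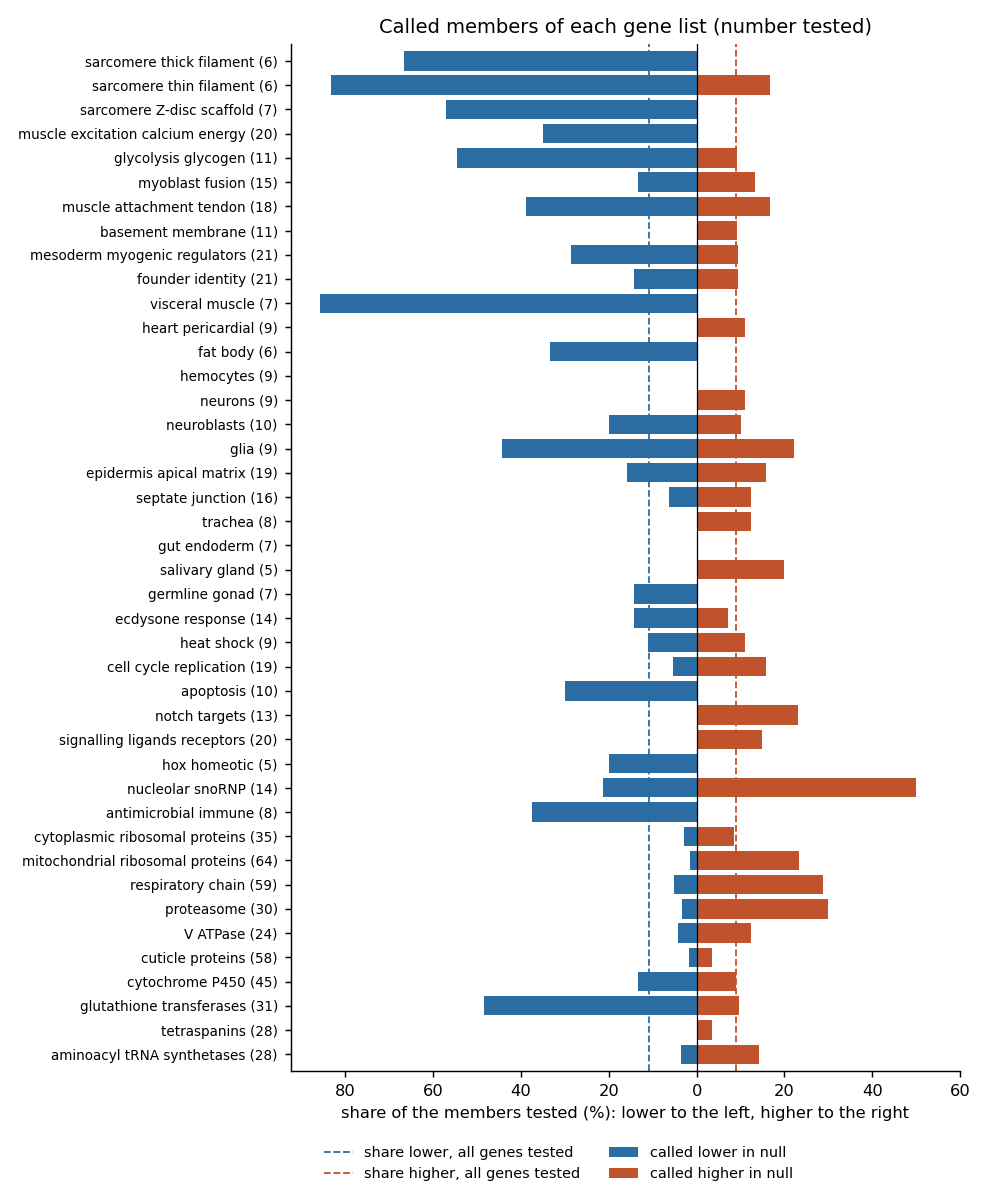
Share of the members tested in each of 42 gene lists that were called lower (bars to the left) or higher (bars to the right) in the null, with the number tested in brackets; dashed lines mark the shares over all 8357 genes, 10.9% lower and 8.88% higher. The sarcomere lists, visceral muscle, glycolysis and glutathione transferases reach farthest past the line for lower genes. Muscle attachment (38.9%), immune (37.5%), muscle excitation (35.0%), fat body (33.3%) and apoptosis (30.0%) also pass it. Glia pass both lines, with 44.4% lower and 22.2% higher. Myoblast fusion (13.3%) and muscle identity (14.3%) lie near the line for lower genes, and nucleolar, proteasome, respiratory chain and mitochondrial ribosomal genes pass the line for higher ones.

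Among ecdysone response genes, usp, the partner of the ecdysone receptor, had 59.6, 42.2, 49.0 and 30.1 in the null arrays and 111, 111, 115 and 159.7 in the control arrays, 2.30-fold lower (log2 -1.20 ± 0.17, limma adjusted p = 9.27e-06). Its hypomorph means, 56.4 in 113, 62.9 in 424 and 77.0 in 65, were also below the control, where replicate 4 stood apart above its group. ImpL2, a secreted insulin antagonist, rose 1.45-fold, with 930.4, 1082, 939 and 948 in the null and 617, 912, 658 and 528 in the control (log2 0.54 ± 0.11, limma adjusted p = 0.00114), and ImpL1, at -0.39, was called lower but not without null replicate 2 or control replicates 2 or 3 (log2 -0.36 to -0.33, limma adjusted p 0.0601 to 0.0835). The receptor gene EcR was at -0.05 and was not called. Of 14 members 2 were lower and 1 higher (14.3% and 7.1%, against 10.9% and 8.88% of all genes). The heat shock list had Hsc70-4, the constitutive chaperone, higher at 0.36 (limma adjusted p = 0.00191) and Hsp27 lower at -1.05, out of 9. This was 11.1% each, against 8.88% and 10.9% of all genes. The call of Hsp27 was lost without null replicates 3 or 4 or control replicates 1, 2 or 4 (log2 -1.05 to -0.79, limma adjusted p 0.0595 to 0.132), and Hsp26, at -1.43 and not called, ranged from 115 to 1117 over the null arrays and from 399 to 1787 over the control arrays.

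Of 19 cell cycle genes 3 were higher and 1 lower (15.8% and 5.3%, against 8.88% and 10.9% of all genes). The 3 higher ones act in DNA replication. In the list 13 members were above 0, at a median of 0.12. With the module as a block 2 were higher and 0 lower. Mcm5, of the replicative helicase, rose 1.41-fold, with 211, 183, 187 and 162 in the null and 119, 120.4, 141 and 125 in the control (log2 0.50 ± 0.12, limma adjusted p = 0.00403). PCNA, the sliding clamp, rose 1.34-fold, with 618, 602, 590.3 and 659.5 in the null and 475, 426, 471 and 459 in the control (log2 0.42 ± 0.08, limma adjusted p = 0.000374). The helicase gene dpa was at 0.37, a call lost without null replicates 2 or 3 or control replicate 2 (log2 0.26 to 0.37, limma adjusted p 0.0639 to 0.157), and Mcm2, Mcm3 and Mcm6 were at 0.27, 0.30 and 0.32 and were not called. The kinase gene Cdk2 was at -0.26, a call lost without null replicates 1, 2, 3 or 4 or control replicates 1, 3 or 4 (log2 -0.27 to -0.22, limma adjusted p 0.0615 to 0.13). Of 10 apoptosis genes, 3 were lower (30.0%, against 10.9% of all genes). They were Diap2, an inhibitor of caspases, Dark, the apoptosome scaffold, and Debcl, a Bcl-2 protein, at -0.51, -0.38 and -0.48. All of them lie on the second chromosome. With the module as a block these were not called, at limma adjusted p values of 0.0882, 0.0775 and 0.0656, and no member was called lower. That block rests on null replicates 1 and 3 alone.

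Among 13 Notch targets 3 were higher (23.1%, against 8.88% of all genes), with a median of 0.11. They were Bearded family genes, which restrain Notch signalling. Ocho had 385, 374, 335 and 294 in the null and 238, 232, 243 and 179 in the control (log2 0.61 ± 0.11, limma adjusted p = 0.000359), and its other probe set changed by 1.96. Brd had 162, 129, 122 and 117 in the null and 86.6, 85.5, 79.7 and 76.9 in the control (log2 0.59 ± 0.14, limma adjusted p = 0.00266). Tom was at 0.38, and its call was lost without null replicates 1, 2 or 4 or control replicates 1, 2 or 3 (log2 0.34 to 0.40, limma adjusted p 0.0592 to 0.102). Of 20 ligands and receptors 3 were higher, among them the Hedgehog co-receptor gene ihog, with 142, 133, 151 and 173 in the null and 109, 97.3, 84.8 and 67.9 in the control (log2 0.66 ± 0.13, limma adjusted p = 0.000434). The Hedgehog receptor gene ptc, at 0.52, and the activin receptor gene put, at 0.26, were also called, and their calls were lost without null replicates 1 or 2 or control replicates 2, 3 or 4 (log2 0.42 to 0.50, limma adjusted p 0.0523 to 0.0926) and without null replicates 1 or 3 or control replicates 1, 3 or 4 (log2 0.20 to 0.26, limma adjusted p 0.0803 to 0.165). Of 5 homeotic genes 1 was lower, Antp at -0.51, lost without null replicates 1, 3 or 4 or control replicates 2, 3 or 4 (log2 -0.53 to -0.42, limma adjusted p 0.0565 to 0.127), and the replicate number as a block gave 3 lower. Of 8 immune genes 3 were lower (37.5%, against 10.9% of all genes). The inhibitor cact fell 1.55-fold, with 281, 262, 273 and 242 in the null and 426, 457, 448 and 353 in the control (log2 -0.64 ± 0.10, limma adjusted p = 2.76e-05). The peptide gene Mtk, metchnikowin, had 3.62, 5.74, 2.10 and 2.77 in the null and 69.1, 56.0, 65.5 and 11.5 in the control, where replicate 4 lay near the null values (log2 -1.64 ± 0.26, limma adjusted p = 4.81e-05). Its null mean was under the filter level. The NF-kappaB gene Rel was at -0.40, a call lost without null replicates 2 or 3 or control replicates 2 or 4 (log2 -0.37 to -0.35, limma adjusted p 0.0802 to 0.0907).

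Of 14 genes of the nucleolus and of ribosome assembly 7 were higher (50%, against 8.88% of all genes) and 3 lower, at a median of 0.35. Fib, fibrillarin, which methylates ribosomal RNA, had 2239, 2137, 2078 and 2588 in the null arrays and 1724, 1762, 1771 and 1594 in the control arrays (log2 0.39 ± 0.08, limma adjusted p = 0.000659). NHP2, of the particles that direct pseudouridylation, had 636, 571, 576 and 608 in the null and 420.3, 449.8, 470.3 and 393 in the control (log2 0.45 ± 0.08, limma adjusted p = 0.000147). Nnp-1, Nopp140 and mod, further nucleolar proteins, were at 0.37, 0.35 and 0.36 (limma adjusted p = 0.0003, 0.00254 and 0.00296), and Nop56 was at 0.28, a call lost without null replicates 3 or 4 or control replicates 1, 2 or 3 (log2 0.22 to 0.28, limma adjusted p 0.0596 to 0.119). These rises were small. The remaining called members made large jumps. The pseudouridine synthase gene Nop60B had 66.8, 68.5, 84.1 and 65.7 in the null and 10.2, 0.921, 4.94 and 13.8 in the control, a mean under the filter level (log2 1.92 ± 0.20, limma adjusted p = 1.40e-07), with means of 5.02 in 113, 3.32 in 424 and 2.44 in 65. Gar1, its partner in the particle, fell 1.92-fold, with 456, 403, 392 and 403 in the null and 721, 765, 786 and 972 in the control (log2 -0.94 ± 0.10, limma adjusted p = 1.65e-07). The gene udd, needed for ribosomal RNA transcription, had 344, 357, 495 and 357 in the null and 1917, 1570.0, 1667 and 2355 in the control (log2 -2.22 ± 0.13, limma adjusted p = 4.60e-12). For udd the means were 294 in 113, 2600.0 in 424 and 449.8 in 65, with 113 and 65 near the null and 424 above the control. Uhg1, whose introns hold small nucleolar RNAs, is described with the largest changes.

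Some members of other housekeeping complexes rose by small amounts. Of 64 mitochondrial ribosomal proteins 15 were higher (23.4%, against 8.88% of all genes) and 1 lower, with a median of 0.18 and 56 members above 0. The largest called was mRpL24, with 317, 386, 403 and 415 in the null and 209, 187, 204 and 227 in the control (log2 0.83 ± 0.09, limma adjusted p = 3.57e-07). Without null replicate 4 the count was 8 higher (12.5%), with the module as a block also 8, and after median centring 23. Without control replicate 2 it was 10. Of 59 respiratory chain subunits 17 were higher (28.8%, against 8.88% of all genes) and 3 lower, with a median of 0.15. Of those called, ND-42 and COX8 were each above that median, with 796, 679, 779 and 819 in the null and 567, 575, 593 and 595 in the control for ND-42 (log2 0.39 ± 0.07, limma adjusted p = 0.000482) and 0.31 for COX8 (limma adjusted p = 0.00159). Against that direction ND-B17, a subunit of complex I on chromosome 2L, had 159, 135, 124 and 148 in the null and 379.9, 378, 348 and 330.1 in the control (log2 -1.26 ± 0.08, limma adjusted p = 1.88e-11). ND-18 had 193, 197, 184 and 208 in the null and 331, 307, 324 and 325 in the control (log2 -0.67 ± 0.08, limma adjusted p = 3.55e-07). The higher count depended on single arrays, with 10 without null replicate 3, 9 without null replicate 4, 11 without control replicate 1 and 11 without control replicate 4. With the module as a block it was 6 (10.2%), and it was 22 after median centring. The 8.88% of all genes belongs to the main fit, in which 742 genes were higher. The module block called fewer genes higher, 480, so its counts in these lists cannot be set against 8.88%.

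Of 30 proteasome subunits 9 were higher (30.0%, against 8.88% of all genes) and 1 lower, at a median of 0.19, and 6 were higher without null replicate 4, control replicate 1 or control replicate 2. Rpt5, an ATPase of the cap, rose most, with 822, 742, 820.2 and 941 in the null and 416, 379, 424 and 438 in the control (log2 0.97 ± 0.09, limma adjusted p = 5.32e-09), and the hypomorphs, at 764 in 113, 795 in 424 and 737 in 65, also averaged above the control. Rpn3 and Rpt2 were at 0.44 and 0.39 (limma adjusted p = 5.52e-05 and 0.00033). The one that fell, Prosbeta2R2, a testis-type subunit gene, had 3.66, 15.7, 8.17 and 20.9 in the null and 83.4, 89.8, 69.7 and 70.7 in the control (log2 -1.78 ± 0.20, limma adjusted p = 3.64e-07), and was as low in the hypomorphs, at 5.99 in 113, 9.09 in 424 and 9.43 in 65. Cytoplasmic ribosomal proteins gave 3 higher and 1 lower of 35 (8.6% and 2.9%, against 8.88% and 10.9% of all genes), at a median of 0.05. Aminoacyl-tRNA synthetases gave 4 higher and 1 lower of 28 (14.3% and 3.6%), at -0.003. Of these synthetases, AlaRS had 209, 151, 173 and 192 in the null and 130.1, 94.7, 68.0 and 86.1 in the control (log2 0.85 ± 0.19, limma adjusted p = 0.00228). PheRS-m, the mitochondrial enzyme for phenylalanine, had 1064, 1137, 1271 and 1427 in the null and 689, 668, 727 and 819.8 in the control (log2 0.74 ± 0.10, limma adjusted p = 9.08e-06). The vacuolar proton pump had 3 of 24 subunits higher and 1 lower (12.5% and 4.2%). The largest rise was that of VhaPPA1-1, with 740.1, 791, 609.8 and 731 in the null and 235, 363, 313 and 386 in the control (log2 1.12 ± 0.16, limma adjusted p = 1.36e-05), whose other probe set changed by 0.28. Among the hypomorphs VhaPPA1-1 averaged 740.4 in 113, 337 in 424 and 356 in 65.

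Glutathione transferases, which conjugate glutathione to toxic or oxidised compounds, were the family outside muscle with the most lower members, 15 of 31 (48.4%, against 10.9% of all genes), with 3 higher and a median of -0.44. Their summed signal was 3889 to 4321 in the null arrays and 6034 to 7076 in the control arrays. GstD1 had 589, 594, 583 and 568 in the null, against 1888, 1510.0, 2088 and 1655 in the control. The null arrays agree closely and the control arrays spread more, with no overlap. GstD1 was 2.98-fold lower (log2 -1.58 ± 0.09, limma adjusted p = 9.75e-13), and its hypomorph means were 1149 in 113, 749 in 424 and 907 in 65. GstD3 had 98.4, 122, 105 and 128 in the null and 473, 480.0, 509 and 474 in the control, 3.88-fold lower (log2 -1.96 ± 0.09, limma adjusted p = 4.22e-14). Of the 10 genes of the D class, clustered on 3R, 8 fell, at a median of -0.88. The 13 genes of the E class, on 2R, were mixed, with 5 lower and 3 higher at a median of -0.26. GstE6 had 220.1, 206, 176 and 158 in the null and 762, 769, 828 and 782 in the control (log2 -1.97 ± 0.09, limma adjusted p = 4.22e-14), and GstE1 had 39.5, 30.5, 34.1 and 16.2 in the null and 171, 187, 246 and 166 in the control (log2 -2.19 ± 0.15, limma adjusted p = 9.37e-11). In the hypomorphs GstE6 averaged 709 in 113, 893 in 424 and 579.5 in 65, against 785 in the control, and GstE1 averaged 192 in 113, 162 in 424 and 201 in 65, against 192 in the control. GstE5, chosen after its values were seen, rose, with 78.2, 104, 83.2 and 90.9 in the null and 19.8, 32.8, 32.0 and 27.7 in the control (log2 1.26 ± 0.17, limma adjusted p = 5.14e-06), and GstE13 had 38.5, 44.7, 43.8 and 61.8 in the null and 2.25, 6.80, 1.81 and 2.88 in the control, a mean under the filter level (log2 1.70 ± 0.21, limma adjusted p = 1.12e-06). GstS1, known as a muscle protein in the adult fly, was at 0.07 and was not called. Members of a cluster are related in sequence, and binding of one transcript to another's probes was not tested, so values of single members are uncertain. With the lowest 50% of probe sets left out, 9 members were lower.

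Of 45 cytochrome P450 genes 4 were higher and 6 lower (8.9% and 13.3%), shares close to the 8.88% and 10.9% of all genes, and 10 were lower without null replicate 3. Cyp6a8 had 128, 101, 147 and 94.5 in the null and 584, 601, 506 and 559 in the control, 4.37-fold lower (log2 -2.13 ± 0.13, limma adjusted p = 4.50e-12). Cyp28d1 had 184, 123, 159.5 and 130.1 in the null and 31.9, 38.8, 30.3 and 32.8 in the control, 3.31-fold higher (log2 1.73 ± 0.17, limma adjusted p = 4.07e-08). Cyp4e2 had 804, 717, 801 and 794 in the null and 472, 476, 471 and 439 in the control, 1.65-fold higher (log2 0.73 ± 0.07, limma adjusted p = 3.36e-08). Of 58 cuticle protein genes 2 were higher and 1 lower (3.4% and 1.7%, against 8.88% and 10.9% of all genes). The lower one was TwdlN at -1.0 (limma adjusted p = 0.000733), with -0.23 on its other probe set. Of 28 tetraspanins 1 was called higher (3.6%), Tsp42Ek. That gene had 191, 221, 208 and 212 in the null arrays and 23.9, 22.6, 33.3 and 41.2 in the control arrays, 4.91-fold higher (log2 2.29 ± 0.14, limma adjusted p = 4.50e-12), while the other 12 tested genes of the Tsp42E cluster on 2R, at -0.34 to 0.45, were not called.

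**Figure D4:**
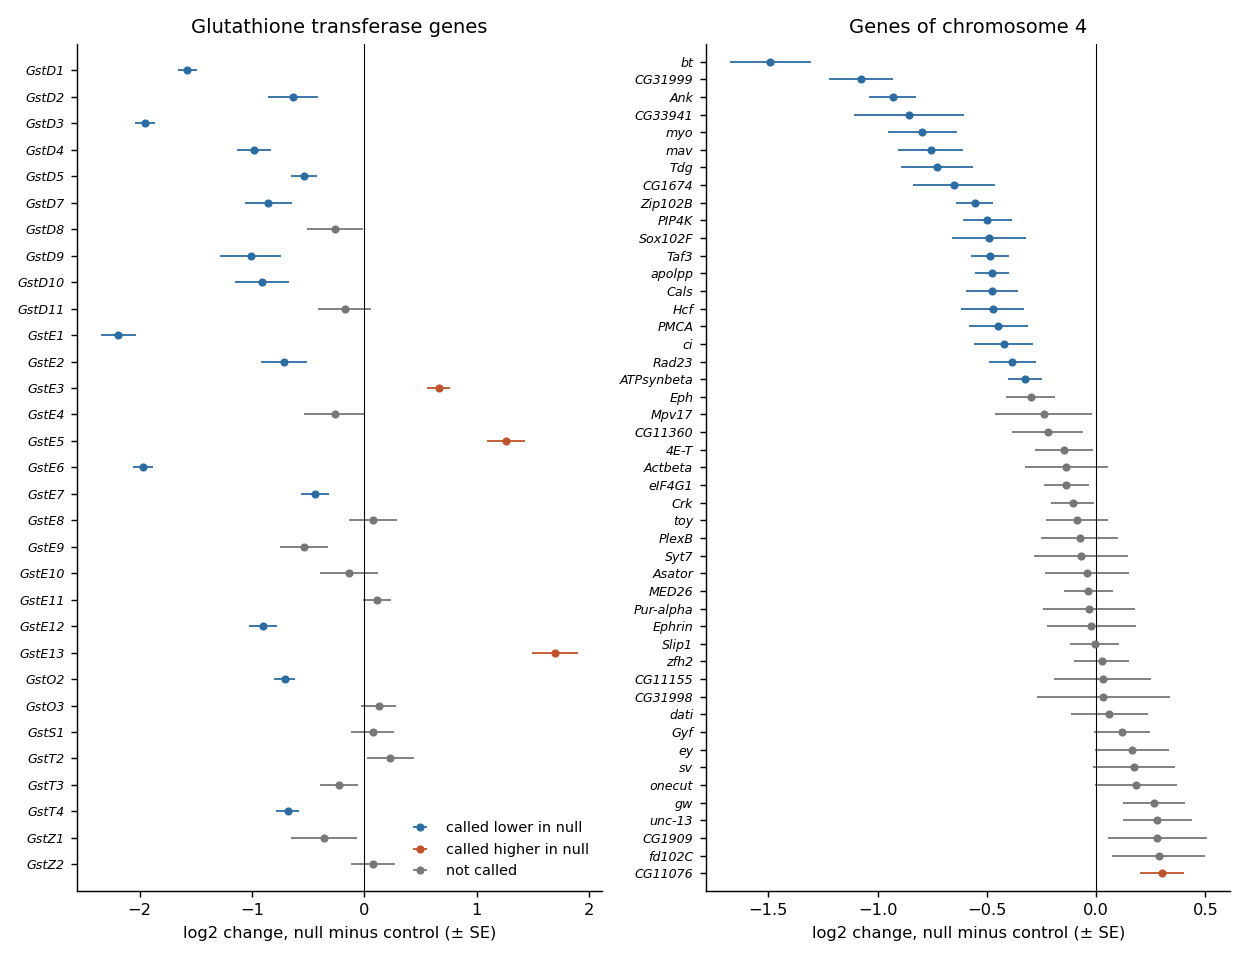
Log2 change, null minus control, with its SE, for the 31 glutathione transferase genes (left panel) and the 47 genes of chromosome 4 (right panel), coloured by call. GstD genes lie left of 0 whereas GstE genes scatter from -2.19 to 1.70; 19 chromosome 4 genes are called lower and 1 higher.

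The largest changes of all lay mostly outside the lists. Uhg1 had 1.59, 8.38, 1.47 and 1.74 in the null arrays and 319.9, 349, 325 and 279 in the control arrays, with hypomorph means of 299 in 113, 389 in 424 and 405 in 65. Its signal was thus at the bottom of the scale in the null alone, with null replicate 2 above the others, and the log2 change of -4.13 ± 0.13 depends on the pseudocount (limma adjusted p = 2.97e-17). MFS18 had 4.13, 2.23, 8.92 and 26.1 in the null and 278, 270.2, 243 and 294 in the control (log2 -3.52 ± 0.16, limma adjusted p = 7.31e-14), with hypomorph means of 290.0 in 113, 288 in 424 and 297 in 65. The gene sprt had 93.9, 104, 73.1 and 83.5 in the null and 595, 556, 572 and 601 in the control, 5.75-fold lower (log2 -2.52 ± 0.09, limma adjusted p = 1.18e-15). CG5080, a gene of high signal, had 462, 423, 391 and 415 in the null and 3389, 2483, 2421 and 2341 in the control, 6.04-fold lower (log2 -2.59 ± 0.18, limma adjusted p = 6.46e-11), and its hypomorph means lay between, at 1199 in 113, 1264 in 424 and 1760.0 in 65. Obp44a, an odorant-binding protein gene, had 28.7, 32.8, 33.8 and 47.2 in the null and 216, 318, 337 and 254 in the control (log2 -2.52 ± 0.14, limma adjusted p = 9.75e-13). The gene casp had 113, 101, 108 and 59.9 in the null and 560.0, 525, 556 and 581 in the control (log2 -2.39 ± 0.11, limma adjusted p = 8.12e-14). Marc had 5.60, 13.2, 6.98 and 21.2 in the null and 136, 103, 115 and 120.3 in the control (log2 -2.31 ± 0.16, limma adjusted p = 6.46e-11). Of these, Obp44a, casp and Marc averaged near or above the control in the hypomorphs, at 371 in 113, 296 in 424 and 384 in 65 for Obp44a, 495 in 113, 516 in 424 and 539.8 in 65 for casp and 134 in 113, 127 in 424 and 127 in 65 for Marc. Cyp309a2 had 6.58, 12.1, 11.5 and 3.92 in the null, a mean under the filter level, and 107, 139, 136 and 113 in the control (log2 -2.52 ± 0.19, limma adjusted p = 2.40e-10).

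Another set of falls was shared, to unlike degrees, by the null and all hypomorphs, so that only the control arrays lay apart from all others. CG6972 had 15.5, 7.82, 2.80 and 7.09 in the null and 281, 258, 296 and 259 in the control (log2 -3.60 ± 0.17, limma adjusted p = 8.77e-14), with means of 6.86 in 113, 39.6 in 424 and 103 in 65. The adenylyl cyclase gene ACXD had 4.92, 12.7, 3.47 and 8.52 in the null and 144, 139, 122 and 125 in the control (log2 -2.68 ± 0.18, limma adjusted p = 4.78e-11), with means of 12.9 in 113, 9.11 in 424 and 9.51 in 65. CG34247 had 16.6, 14.5, 18.2 and 27.8 in the null and 235, 263, 146 and 253 in the control (log2 -2.75 ± 0.22, limma adjusted p = 1.14e-09), with means of 15 in 113, 20.5 in 424 and 29.4 in 65. Smyd4-2, a paralogue of Smyd4-3, had 8.38, 13.6, 10.6 and 4.41 in the null and 119, 142, 127 and 105 in the control (log2 -2.47 ± 0.19, limma adjusted p = 3.25e-10), with means of 8.02 in 113, 21.5 in 424 and 35.9 in 65. All 4 genes lie on chromosome 3, and the null means of CG6972, ACXD and Smyd4-2 were under the filter level.

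Among the rises, RanBPM, a scaffold protein of a ubiquitin ligase complex, had 419, 370.0, 405 and 359.8 in the null arrays and 29.5, 33.0, 39.0 and 44.8 in the control arrays. It was 7.73-fold higher (log2 2.95 ± 0.14, limma adjusted p = 1.20e-13), with hypomorph means of 31.1 in 113, 31.9 in 424 and 37.0 in 65. CG13427 was abundant, with 3369, 3107, 3197 and 3352 in the null and 782, 874, 781 and 835 in the control, 3.93-fold higher (log2 1.97 ± 0.08, limma adjusted p = 1.93e-14). The serine protease gene teq had 2549, 2238, 2548 and 2272 in the null and 335, 337, 424 and 519 in the control, 5.84-fold higher (log2 2.55 ± 0.16, limma adjusted p = 1.5e-11), but its other probe sets changed by -0.14, -0.21 and -0.38. Sf3b3, a splicing factor subunit, had 1525, 1756, 1355 and 1266 in the null and 459, 582, 505 and 403 in the control, 2.97-fold higher (log2 1.57 ± 0.14, limma adjusted p = 3.74e-09). CG2233 had 181, 180.1, 192 and 171 in the null and 22.3, 22.5, 5.77 and 19.0 in the control, 6.05-fold higher (log2 2.60 ± 0.19, limma adjusted p = 1.60e-10), and its hypomorph means of 58.6 in 113, 66.0 in 424 and 57.6 in 65 lay in between. CG15353 was 3.0-fold higher, with 299, 393, 303 and 268 in the null and 105, 70.2, 102 and 101 in the control (limma adjusted p = 1.91e-09), and its second probe set changed by 1.61. CG42807 and CG7742 rose 4.14-fold and 4.09-fold (limma adjusted p = 1.42e-07 and 1.58e-07), with means of 95.8 and 132 in the null, against 11.7 and 20.3 in the control. EbpIII, CG32572 and CG8620, whose control means were under the filter level, were at 1.63, 1.61 and 1.18 on the log2 scale (limma adjusted p = 2.60e-06, 1.74e-06 and 0.00139), and the other probe set of CG32572 changed by 0.08.

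The 207 genes changed at least 2-fold were then sorted by where their arrays lay among all 20, a description chosen after values had been seen. For 91 of them only the null arrays lay apart, above or below all 16 others, as for Uhg1, MFS18 and RanBPM. For 50 only the control arrays lay apart, for 18 both did, as for Mlc2 and Argk1, and for 48 neither did. Of the 91 genes, 72 (79.1%) lay on chromosome 2, against 37.8% of all genes tested and 22.0% of the 50 genes with the control apart. The share was alike in both directions, with 46 of 59 lower genes and 26 of 32 higher genes on chromosome 2. These genes were spread along the chromosome and not gathered at 1 place, in 12 of 15 stretches of 100 neighbouring tested genes on 2L and in 17 of 17 on 2R. Whether they belong to the loss of mef2 or to the chromosome that carries 22.21 cannot be told apart here, since the null and the other genotypes may differ along chromosome 2 in more than mef2. Of the 50 genes with the control apart, 12 lay on 3L (24.0%, against 19.5% of all genes tested). On 3R lay 22 (44.0%, against 24.8%). Whether the genes with the control apart belong to mef2 or to other differences between the stocks was not tested. Over all called genes the arms were closer, from 14.1% called on X to 23.3% on 2L among the large arms.

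Genes behind the visible markers of the control stock lie on the same chromosome. The gene px, for which the control stock is named and whose mutation alters wing veins, had 458, 539, 479 and 502 in the null, against 317, 299.9, 304 and 276 in the control, 1.62-fold higher (log2 0.69 ± 0.08, limma adjusted p = 6.19e-07). Its means in the hypomorphs, made in that stock, were 266 in 113, 259.9 in 424 and 308 in 65, near the control. The gene speck, which underlies sp, had 6.55, 3.96, 4.22 and 5.29 in the null, a mean under the filter level, and 84.8, 61.4, 62.7 and 70.8 in the control (log2 -2.03 ± 0.15, limma adjusted p = 2.57e-10), with means of 27.6 in 113, 42.8 in 424 and 31.1 in 65. The eye colour gene cn had 36.1, 38.0, 27.5 and 62.9 in the null and 44.5, 46.6, 25.9 and 39.9 in the control and was not called (log2 0.03 ± 0.27, limma adjusted p = 0.961). All 3 were chosen for this after their values were seen, and the markers dp and a were not examined.

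**Figure D5:**
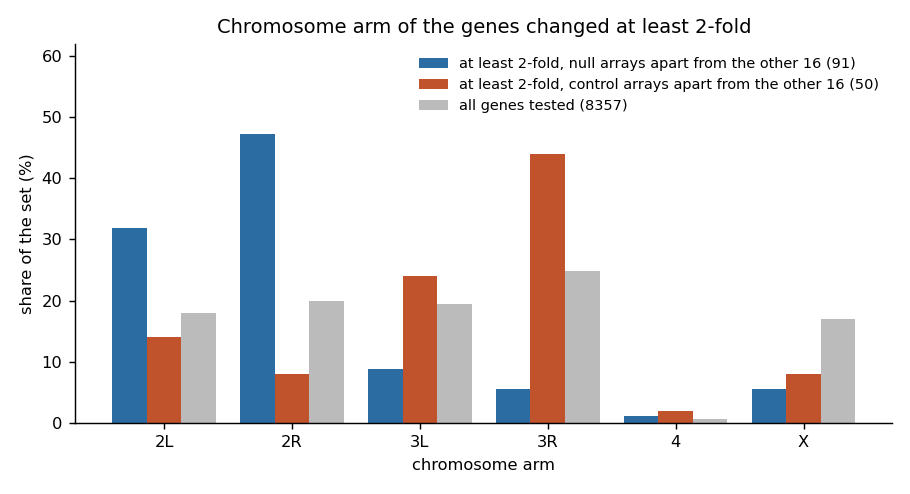
Share of genes on each chromosome arm (vertical axis, %) among the 91 genes changed at least 2-fold in which only the null arrays lay apart from the other 16, the 50 in which only the control arrays did, and all 8357 genes tested. The null set lies mainly on 2L and 2R (31.9% and 47.3%) and the control set mainly on 3R (44.0%).

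Chromosome 4, the smallest, stood out by direction, again a description made after its values were seen. Of its 47 genes tested 19 (40.4%) were lower, against 10.9% of all genes, and 1 was higher, with a median of -0.14. Ank, an ankyrin of the membrane skeleton, fell 1.91-fold, with 188, 171, 177 and 135 in the null and 286, 360.2, 350.2 and 338 in the control (log2 -0.93 ± 0.11, limma adjusted p = 5.68e-07). Zip102B, a zinc transporter, had 142, 135, 156 and 142 in the null and 206, 207, 219 and 244 in the control (log2 -0.56 ± 0.08, limma adjusted p = 2.69e-05). Taf3, a subunit of the general transcription factor TFIID, had 406, 352, 433 and 422 in the null and 587, 539.7, 627 and 529.7 in the control (log2 -0.49 ± 0.09, limma adjusted p = 0.000208). The TGF-beta ligand genes mav and myo were at -0.76 ± 0.15 and -0.79 ± 0.16 (limma adjusted p = 0.000564 and 0.000665), and ci, the transcription factor of the Hedgehog pathway, at -0.42 ± 0.13 with overlapping arrays (limma adjusted p = 0.026). The list also holds the muscle gene bt and the fat body gene apolpp. Of the 47 genes 9 (19.1%) had null arrays below all 16 others, against 2.0% to 5.6% of the genes on the other arms. The medians were -0.01, -0.19, -0.21 and -0.37 on the 4 days, so they were not alike. The count of lower genes was 14 to 18 with 1 array left out, 10 with the module as a block and 13 with the null arrays of module 4 alone. The last settings compare the same null arrays with the control and are not separate checks.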

How the data were processed

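RNA of whole embryos was hybridised to 20 one-colour Affymetrix arrays. The deposited values are linear signal intensities that the authors made with MAS5, per the submitters' processing notes. Their trimmed mean is the same on every array, so no further scaling was applied. Of 14010 probe sets, 44 are controls, 12443 have 1 gene symbol in the platform annotation, 327 several and 1196 none, and 12394 matched a RefSeq Release 6 gene, which gave the chromosome arms. The brightest probe set stood for each of 10844 genes, the lowest 25% by mean signal (under 9.29) were left out, and 8357 genes were tested on log2(signal + 16). Limma 3.58.1 in R 4.3.3 (lmFit, and eBayes with a trend) fitted 1 mean per genotype over all 20 arrays. The contrast was null minus control, with Benjamini-Hochberg adjustment over all genes tested and a threshold of 0.05. The fit was tested on simulated data. The number of arrays limits the precision. Named genes are, among calls whose arrays do not overlap, the 10 largest falls and rises with both means over the filter level and the 8 largest falls and 5 largest rises among the others, with every called member of the gene lists and up to 4 of each family given by a name pattern. The members and lists were chosen with earlier results of these data known. Alternatives changed the scaling, pseudocount, filter, probe set rule, arrays fitted and blocks. Sequences were not used here.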

Additional observations from a re-analysis of the deposited data

Results flagged for a closer look

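Of 344 groups of 4 arrays examined for the genes named, 29 held 1 array that lay apart from the other 3 by Dixon's 95% criterion, and chance gives about 1 in 20 groups.

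In the null arrays, replicate 1 was apart for Mlc2, at 35.3 against 49.2, 50.7 and 49.9. Replicate 2 was apart for Cdk2 (116, against 130, 129 and 128), Cyp4e2 (717, against 804, 801 and 794), ImpL2 (1082, against 930.4, 939 and 948) and Uhg1 (8.38, against 1.59, 1.47 and 1.74). Replicate 3 was apart for Msp300 (2.33, against 18.4, 18.6 and 16.8), Nop60B (84.1, against 66.8, 68.5 and 65.7), pio (54.0, against 34.0, 36.5 and 36.9), udd (495, against 344, 357 and 357) and vg (25.0, against 34.9, 36.7 and 35.2). Replicate 4 was apart for apolpp (1339, against 1624, 1628 and 1643), dpn (120, against 168, 164 and 172), Glys (230, against 178, 178 and 182), org-1 (52.3, against 101, 104 and 114) and up (17.1, against 3.20, 3.10 and 4.37).

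In the control arrays, replicate 1 was apart for CG5080 (3389, against 2483, 2421 and 2341), Eno (692, against 628, 624 and 616), mid (158, against 136, 132 and 136) and nab (97.8, against 62.5, 61.5 and 61.3). Replicate 2 was apart for CG15353 (70.2, against 105, 102 and 101) and Nrx-IV (626, against 568, 557 and 567). Replicate 3 was apart for CG2233 (5.77, against 22.3, 22.5 and 19.0) and mew (73.3, against 114, 113 and 119). Replicate 4 was apart for Cyp4e2 (439, against 472, 476 and 471), Mtk (11.5, against 69.1, 56.0 and 65.5), mwh (60.9, against 77.6, 75.6 and 76.2), Ocho (179, against 238, 232 and 243), usp (160, against 111, 111 and 115) and verm (1730, against 1974, 1963 and 1970).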

How the results depend on the processing

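Of 172 named genes, 123 kept their call and sign in every setting that gave them a value, 106 of these in all 21 and 17 in 20, since the stricter filter left them out, 48 lost the call in at least 1, and Nrt (log2 -0.12, limma adjusted p = 0.335) and tmod (log2 -0.20, limma adjusted p = 0.179) reversed with the mean of a gene's probe sets. The 1656 calls became 1735 with median centring, 1613 with quantile normalization, 1571 with the mean of probe sets, 1410 with the 8 arrays alone and 1406 to 1514 with 1 array left out. With the replicate number as a block 1883 genes were called, 1638 of them shared. Deviations of arrays with the same number correlated at -0.02 to 0.06, and 5 of 8 arrays correlated best with their own number. The numbers follow hybridisation days in the run records, but the labels do not pair the samples. With the fluidics module as a block 480 genes were higher. Genes at least 2-fold higher numbered 125 with a pseudocount of 1, 21 with 64 and 41 with the lowest 50% of probe sets left out. Those at least 2-fold lower numbered 281 and 64 with pseudocounts of 1 and 64. Low signal limits the size of every change in a gene under the filter level in 1 genotype, and 4 arrays a genotype limit the calls of small changes.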
